A study of Mus musculus with 8 samples.

Results

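The genes described here are 38 components of the endoplasmic reticulum (ER) that fold, modify and secrete proteins or that sense folding stress, taken by name from a table of 54532 genes. They comprise 9 members of the HSP70 and HSP90 chaperone systems with their cofactors, the 2 lectin chaperones, 4 protein disulfide isomerases, 5 genes of ER-associated degradation (ERAD), 7 subunits of the translocon and its TRAP complex, 4 signal peptidase subunits, 3 oligosaccharyltransferase subunits and 4 stress sensors or factors. *Ddit3* has a second row in the table with 0 reads in every library, which was not used. All 38 passed the filter on low counts, as did 13560 genes in all.

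RNA-Seq was performed on *Zeb1-/-* EpCAM+ LSK cells (4 libraries) and *Zeb1-/-* EpCAM- LSK cells (4 libraries), where LSK denotes the Lin- Sca-1+ c-Kit+ compartment of the bone marrow in which blood stem cells and early progenitors reside. The mice were C57BL/6, of an age not given for these libraries in the sources used here, with *Zeb1 fl/fl* alleles and Mx1-Cre, a recombinase that interferon switches on in many cell types, not in blood cells alone. RNA was taken on day 14 from the end of dosing with pIpC, the double-stranded RNA that induces Mx1-Cre. Both fractions came from mice given pIpC and are labeled *Zeb1-/-*, and no library came from control mice. The comparison is therefore between EpCAM fractions and does not measure loss of *Zeb1*. The paper reports the deletion by PCR in LSK cells, without a separate result for each EpCAM fraction. The labels do not name the mouse behind each library, and p-values measure the spread between these libraries. Each library held 14114491 to 17073546 counted reads. *Epcam*, which encodes the marker used for sorting, reached 187 ± 32.7 CPM (counts per 1000000 reads after TMM scaling, edgeR's trimmed mean method) in EpCAM+ and 3.86 ± 3.61 CPM in EpCAM- libraries (SD, n = 4). Reads of *Zeb1* were higher in EpCAM+ libraries (19.5 ± 3.75 against 11.9 ± 2.14 CPM, log2 fold change 0.72, edgeR adjusted p = 0.00798). Such reads do not tell the deleted allele from an intact one, so they do not give the extent of deletion in each fraction.

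Proteins that enter the ER are threaded through the SEC61 channel, lose their signal peptide to signal peptidase and receive N-linked glycans from the oligosaccharyltransferase. BiP, GRP94, the lectin chaperones calnexin and calreticulin and the disulfide isomerases then fold them, and ERAD returns those that fail to the cytosol for degradation. When unfolded protein builds up, the sensors IRE1, PERK and ATF6 start the unfolded protein response, which raises chaperone and ERAD genes through spliced XBP1 and ATF6 and stress genes through ATF4 and CHOP. Hematopoietic stem cells are known for low protein synthesis and for sensitivity to ER stress, and plasma cells for a greatly expanded ER.

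The promoters of several members carry the ER stress response element (ERSE), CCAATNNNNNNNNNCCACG, in which NF-Y binds the CCAAT end and ATF6 or XBP1 the CCACG end. RefSeq promoter windows of GRCm38.p6 (250 bases before to 50 after each start) matched 31 of the 38 members. On either strand, the full ERSE was present in 39 of all 32851 windows (0.119%), among them those of 8 members, *Hspa5*, *Hsp90b1*, *Calr*, *Canx*, *Pdia6*, *Creld2*, *Dnajc3* and *Syvn1*. The related ERSE-II, ATTGGNCCACG, was present in 12 windows (0.0365%), including those of *Dnajb11* and *Herpud1*, and the 8-base XBP1 site TGACGTGG in 222 windows (0.676%), none of them a member's. The bare CCACG, which the ERSE and ERSE-II also contain, occurred in 32.8% of all windows and in 25 of the 31. Stretches of 5 promoters from before the RefSeq start site are shown, with the match in capitals and 20 bases on each side. They carry the element in members that changed and in members that did not. The stretch of *Hspa5* lies before its RefSeq start but after the start of the gene in the deposited table. *Hspa5*, *Canx* and *Syvn1* hold the element in the direction of the gene, while *Calr* and *Creld2* hold it on the other strand, where it reads CGTGG first.
Hspa5, chr2:34772005-34772063, plus strand: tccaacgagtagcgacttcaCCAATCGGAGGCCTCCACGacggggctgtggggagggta
Canx, chr11:50325780-50325838, minus strand: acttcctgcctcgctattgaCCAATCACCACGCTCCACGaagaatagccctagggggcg
Calr, chr8:84847055-84847113, minus strand: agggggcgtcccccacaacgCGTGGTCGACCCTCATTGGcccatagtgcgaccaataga
Creld2, chr15:88819500-88819558, plus strand: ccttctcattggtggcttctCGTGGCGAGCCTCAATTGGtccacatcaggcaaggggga
Syvn1, chr19:6046512-6046570, plus strand: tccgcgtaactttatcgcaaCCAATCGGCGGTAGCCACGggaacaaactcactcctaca

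Among the members, most genes of folding, translocation and glycosylation were lower in *Zeb1-/-* EpCAM+ LSK cells, while the 5 ERAD members and 3 of the 4 stress sensors or factors did not pass the test. Whether the roles differ from each other was not tested. Of the 38 members, 24 were lower and 0 were higher (edgeR's quasi-likelihood test, two-sided, Benjamini-Hochberg adjusted p under 0.05), and 14 did not pass. Over all tested genes 20.8% were lower and 21.8% higher. At an unadjusted p under 0.05 still 0 members were higher, and DESeq2 and limma-trend also gave 0. The median log2 fold change (EpCAM+ over EpCAM-) was -0.44 for the members and 0.02 for all tested genes. Most members are well expressed, and among the 8779 genes at or above the mean level of the lowest member (10.9 CPM), 28.0% were lower with a median of -0.07. The changes were modest, from 1.18-fold (*Spcs2*) to 1.74-fold (*Hyou1*) among the 24 lower members, and 9 of them exceeded 1.5-fold. The scaling shifted the balance of all genes: upper-quartile scaling gave 3642 higher and 2083 lower genes (15.4% lower), against 2961 and 2818 with TMM, and the median of all genes moved to 0.11. Under it 19 members were lower and 0 higher.

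All 4 EpCAM+ libraries lay below all 4 EpCAM- libraries for 20 of the 38 members, and for 20% of tested genes. Comparing libraries replicate by replicate, 27 members were lower in all 4 pairs and 1, *Dnajb9*, was higher in all 4. The share of all tested genes that were lower in all 4 pairs was not counted, so the 27 stand without that comparison. The members together took 1.04% to 1.12% of the counts in EpCAM+ libraries and 1.27% to 1.54% in EpCAM- libraries. In bulk RNA of sorted cells, a smaller number of cells with a high level and a lower level in every cell cannot be told apart.

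**Figure D1:**
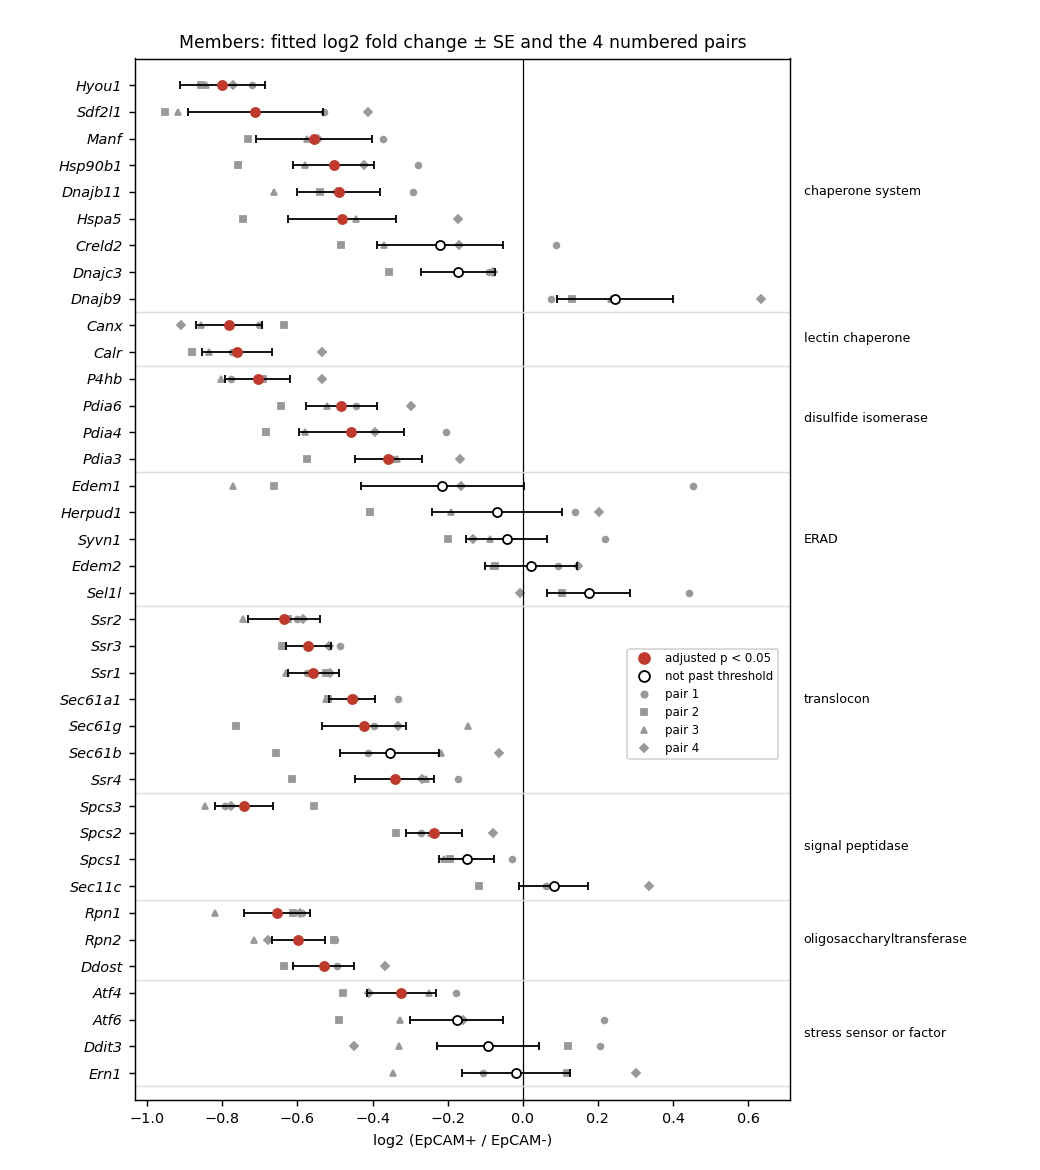
Fitted log2 fold change of each member (EpCAM+ over EpCAM-, x axis) with its standard error, grouped by role, with the log2 ratio of each of the 4 same-numbered pairs in gray. Filled points are the 24 members with an adjusted p under 0.05, all to the left of 0, and the ERAD genes lie around 0.

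The libraries also differed in markers of other blood cells. Among 19 plasma cell markers, 12 of the 13 tested were higher in EpCAM+ libraries, against 21.8% of all tested genes. Many of the 13 had few or no reads in EpCAM- libraries and passed the filter through the EpCAM+ libraries. *Ighg2c*, for example, had 0 counts in every EpCAM- library. Such genes could only be called higher or not at all, so the filter partly fixed the count of 12. The summed level of the 19 markers was 50587 CPM in EpCAM+ 1 and 3659 to 6055 CPM in the other EpCAM+ libraries. In EpCAM- libraries it was 178 to 331 CPM (p = 0.0286 by an exact permutation test, two-sided, which is the lowest value that 4 libraries against 4 permit). The log2 ratio of the mean sums was 5.93, or 4.12 without EpCAM+ 1. The exact permutation p was 0.0286 without any 1 of the EpCAM+ libraries and 0.2 without any 1 of the EpCAM- libraries. The test compares group means, and EpCAM+ 1 weighs more when a split puts it in the smaller group. The 0.2 therefore does not mean that the fractions overlapped, and every EpCAM+ sum lay above every EpCAM- sum. In EpCAM+ libraries *Igkc* and *Ighm* contributed most to the sum. The tested marker that did not pass was *Sdc1*, at 5.51 to 25.7 CPM in EpCAM+ and 2.28 to 7.80 CPM in EpCAM- libraries (edgeR adjusted p = 0.0704). Factors of plasma cells were at different levels. *Prdm1* had 0.454 to 0.915 CPM in EpCAM+ and 0 to 0.592 CPM in EpCAM- libraries, and *Irf4* had 0.0567 to 2.48 CPM against 0 to 0.0683 CPM, and neither was tested for lack of counts. *Pou2af1* was higher, at 0.907 to 11.6 CPM against 0 to 0.148 CPM (6.08 on the log2 scale, edgeR adjusted p = 0.00259), and *Xbp1* had 167 to 347 CPM over all 8 libraries. EpCAM+ 1 held the highest value of all 4. Immunoglobulin genes with *Jchain* took 5.97% of the counts in EpCAM+ 1, 0.446% to 0.750% in the other EpCAM+ libraries and at most 0.0253% in EpCAM- libraries. Of 9 tested conventional dendritic cell genes 8 were higher, and the list summed to 16241, 1241, 4236 and 16751 CPM in EpCAM+ libraries 1 to 4 against 128 to 426 CPM in EpCAM- libraries. *Cd74*, *H2-Ab1*, *H2-Aa* and *H2-Eb1* contributed most to the EpCAM+ sums, so the sum does not describe the whole list. *Zbtb46* did not pass (-0.29, edgeR adjusted p = 0.727). *Xcr1*, *Clec9a* and *Batf3* were higher but had 0 to 13 counts per EpCAM- library and passed the filter through EpCAM+ libraries. Of 7 tested B cell genes 3 were higher (sums of 237 to 370 CPM against 171 to 235 CPM). Among them *Ms4a1* and *Fcrla* had 0 to 14 counts per EpCAM- library and passed the filter through EpCAM+ libraries. In the other direction, the summed level of 9 neutrophil and granule genes was 1097 to 1853 CPM in EpCAM+ and 11942 to 18563 CPM in EpCAM- libraries, with *Mpo* contributing most. The 4 lower genes were *Mpo*, *Elane*, *Prtn3* and *Ctsg*. The other 5, *S100a8*, *S100a9*, *Ltf*, *Camp* and *Ngp*, did not pass, so the sum does not describe the whole list. The 8 erythroid genes summed to 51.8 to 239 CPM against 1905 to 6626 CPM. Of these 8, 5 were lower and 1, the globin gene *Hbb-bt*, was higher (1.35 on the log2 scale, edgeR adjusted p = 0.0146). Mast cell or basophil genes summed to 68.3 to 91.2 CPM against 231 to 496 CPM, with 3 of 5 tested lower. The gate's own genes were present in every library but not at equal levels. *Kit* had 244 to 328 CPM in EpCAM+ and 155 to 245 CPM in EpCAM- libraries (0.45 on the log2 scale, edgeR adjusted p = 0.0276). *Ly6a* had 116 to 351 CPM against 15.7 to 71.7 CPM, without overlap (2.28, edgeR adjusted p = 0.00658). Both were among the 10 of 12 LSK and stem cell genes that were higher in EpCAM+ libraries. With immunoglobulin genes and *Jchain* taken out before scaling, 25 members were lower and 0 higher. That setting leaves the counts of the members themselves unchanged, including any reads from plasma cells. The part of the marker differences in the results for the members, those of plasma cells among them, was not tested.

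Of the 9 chaperone system members, 6 were lower (median -0.49), and 5 of those 6 held in every alternative setting. Gene positions are those of the deposited table on GRCm38. *Hyou1*, which encodes GRP170, the nucleotide exchange factor of BiP (chr9:44379490-44392369), had 14.1, 14.0, 15.1 and 12.3 CPM in EpCAM+ libraries 1 to 4 and 23.3, 25.4, 27.2 and 21.0 CPM in EpCAM- libraries 1 to 4. The fractions did not overlap (log2 fold change -0.80, SE 0.113, edgeR adjusted p = 0.000588). *Hsp90b1*, which encodes the HSP90 chaperone GRP94 (chr10:86690209-86705509), had 561, 418, 441 and 431 CPM against 681, 707, 659 and 578 CPM. EpCAM+ 1 stood highest in its fraction and just below the lowest EpCAM- library (-0.50, SE 0.108, edgeR adjusted p = 0.00454). Its promoter window holds 2 copies of the ERSE. *Dnajb11* encodes the BiP cochaperone ERdj3 (chr16:22857845-22879634) and had 158, 127, 122 and 112 CPM against 193, 185, 193 and 158 CPM, a fall of 0.49 on the log2 scale (edgeR adjusted p = 0.00588), with EpCAM+ 1 and EpCAM- 4 at the same rounded value.

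*Hspa5*, which encodes BiP, the HSP70 chaperone of the ER lumen (chr2:34771970-34777547), is given for its role and was chosen after its values were seen. It had 1260, 1143, 1284 and 1046 CPM in EpCAM+ libraries and 1760, 1916, 1747 and 1180 CPM in EpCAM- libraries. EpCAM- 1, 2 and 3 lay above all EpCAM+ libraries, and EpCAM- 4 lay among them. The log2 fold change was -0.48 (SE 0.144, edgeR adjusted p = 0.0216). The call was lost under upper-quartile scaling (adjusted p = 0.0518) and library totals (0.0559), and without EpCAM+ 4, EpCAM- 2 or EpCAM- 3 (0.0553 to 0.0564). Cofactors lower with it were *Sdf2l1*, a partner of ERdj3 (-0.71, edgeR adjusted p = 0.00984), and *Manf*, a secreted BiP-binding protein (-0.56, edgeR adjusted p = 0.0156), both with overlapping fractions. The *Manf* locus overlaps *Dcaf1* and *Rbm15b*, and the library kit does not mark strand, so reads of overlapping genes may not be separable.

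The 3 chaperone system members without a call were *Dnajc3*, *Creld2* and *Dnajb9*. *Dnajc3*, the cochaperone P58IPK that binds PERK, had 142 to 177 CPM against 150 to 188 CPM (log2 fold change -0.17, edgeR adjusted p = 0.176), was lower in all 4 pairs, and passed when the replicate number was a block (adjusted p = 0.0484), a fit in which 24.7% of all genes were lower. *Creld2*, a chaperone with isomerase activity, had 121 to 205 CPM against 137 to 201 CPM (-0.22, edgeR adjusted p = 0.313). Its highest value was in EpCAM+ 1, without which it passed as lower (-0.41, adjusted p = 0.0366). *Dnajb9* encodes ERdj4, a BiP cochaperone raised by spliced XBP1, and was the member with the most positive fitted change. It had 21.6, 18.3, 22.0 and 18.9 CPM against 20.5, 16.7, 18.7 and 12.2 CPM (0.25, SE 0.154, edgeR adjusted p = 0.221), and the lowest EpCAM- library was EpCAM- 4.

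**Figure D2:**
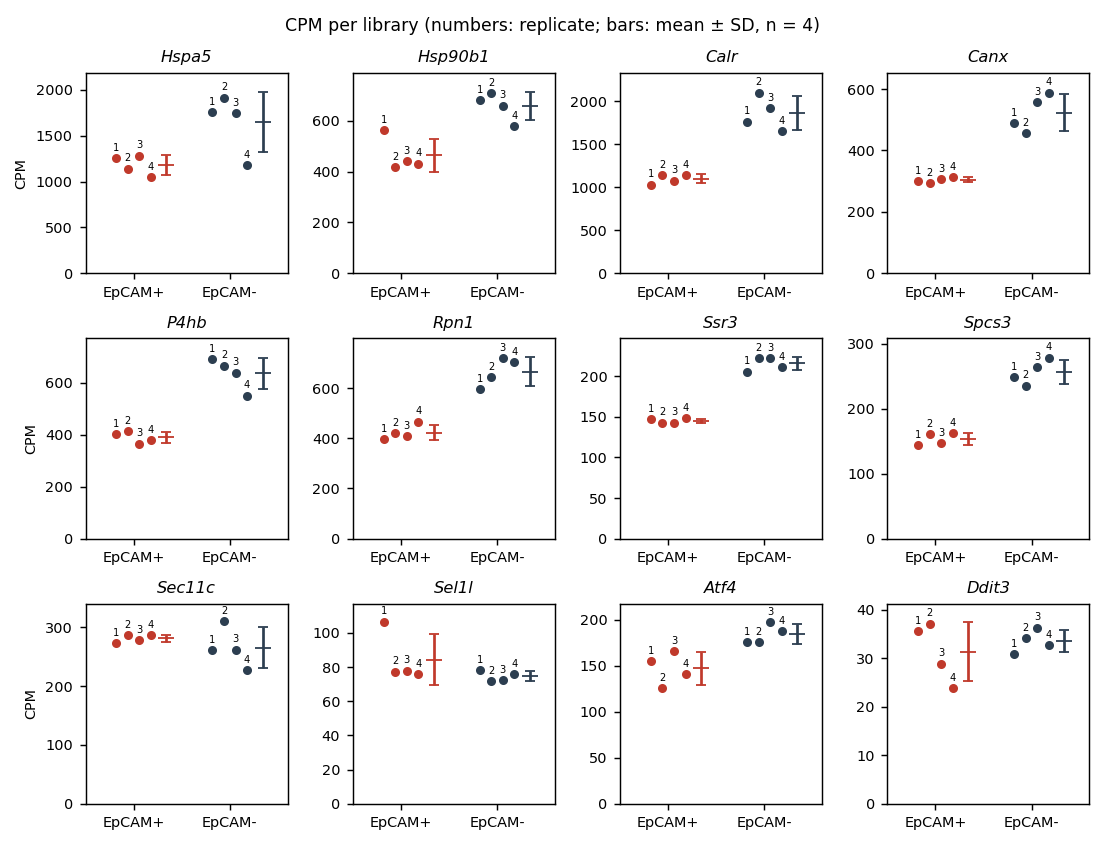
CPM of 12 members in each library (y axes start at 0), with numbers for the replicate and bars for the mean ± SD of each fraction (n = 4). *Calr*, *Canx*, *P4hb*, *Rpn1*, *Ssr3* and *Spcs3* have separate fractions, *Hspa5* overlaps through EpCAM- 4, and *Sel1l* has a single high value in EpCAM+ 1.

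Both lectin chaperones, which hold glycoproteins until they fold, were lower (median -0.77). *Calr* (calreticulin, chr8:84841850-84846934) had 1032, 1142, 1079 and 1141 CPM in EpCAM+ libraries and 1765, 2101, 1926 and 1653 CPM in EpCAM- libraries. *Canx* (calnexin, chr11:50293961-50325673) had 301, 294, 308 and 313 CPM against 489, 458, 557 and 588 CPM. Neither gene overlapped between fractions, and EpCAM+ values were tightly grouped. The log2 fold change was -0.76 for *Calr* (SE 0.0936, edgeR adjusted p = 0.000326) and -0.78 for *Canx* (SE 0.0881, edgeR adjusted p = 0.000228), and leaving out single libraries kept it between -0.82 and -0.71 for *Calr* and between -0.85 and -0.73 for *Canx*.

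All 4 disulfide isomerases, which form and rearrange the disulfide bonds of folding proteins, were lower (median -0.47). *P4hb* (PDI itself, chr11:120560298-120573253) had 402, 412, 366 and 379 CPM against 689, 665, 638 and 550 CPM, with a wide gap between the fractions (-0.71, SE 0.0867, edgeR adjusted p = 0.000326). *Pdia6* (chr12:17266545-17284770) had 641, 609, 585 and 578 CPM against 872, 951, 839 and 711 CPM (-0.48, SE 0.0953, edgeR adjusted p = 0.00296). *Pdia3* (ERp57, the isomerase that works with the lectin chaperones, chr2:121413775-121438687) had 1090, 960, 977 and 1052 CPM against 1385, 1429, 1233 and 1182 CPM, again without overlap (-0.36, SE 0.0896, edgeR adjusted p = 0.00951). *Pdia4*, with 169 to 250 CPM against 222 to 306 CPM, overlapped through EpCAM+ 1, and its call (-0.46, edgeR adjusted p = 0.0239) held in 11 of 17 alternative settings. It was lost under both upper-quartile scaling and library totals and without EpCAM+ 2, 3 or 4 or EpCAM- 2 (adjusted p = 0.0506 to 0.0694).

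Of the 5 ERAD members, 0 were lower or higher, also at an unadjusted p under 0.05 and with DESeq2 or limma-trend, and their median was -0.04. *Edem1*, a mannosidase-like lectin that hands misfolded glycoproteins to ERAD (chr6:108828641-108859356), had 79.1, 38.7, 34.9 and 48.7 CPM in EpCAM+ libraries and 57.8, 61.3, 59.6 and 54.6 CPM in EpCAM- libraries. EpCAM+ 1 was above all EpCAM- libraries and the other EpCAM+ libraries below them. Its log2 fold change was -0.21 (SE 0.217, edgeR adjusted p = 0.446) with EpCAM+ 1 and -0.52 (adjusted p = 0.00814) without it. *Sel1l*, the adaptor of the ERAD ubiquitin ligase (chr12:91806043-91849157), had 107, 77.4, 78.0 and 75.7 CPM against 78.4, 72.0, 72.5 and 76.1 CPM. Its EpCAM+ 1 value stood alone, and the log2 fold change was 0.17 (edgeR adjusted p = 0.221) with that library and 0.04 without it.

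*Herpud1*, a membrane scaffold of the same complex, had 240, 164, 174 and 154 CPM against 217, 218, 198 and 134 CPM (-0.07, edgeR adjusted p = 0.772). Its promoter window holds the ERSE-II. *Syvn1*, the ubiquitin ligase HRD1, had 40.3, 32.7, 33.5 and 29.1 CPM against 34.6, 37.5, 35.6 and 31.9 CPM (-0.04, edgeR adjusted p = 0.772). *Edem2*, a relative of *Edem1*, had 239, 212, 176 and 185 CPM against 224, 223, 186 and 167 CPM (0.02, edgeR adjusted p = 0.905). For all 3 the fractions overlapped and EpCAM+ 1 was the highest EpCAM+ library. The signs of these 3 small changes depended on the setting, turning for *Herpud1* and *Syvn1* under upper-quartile scaling and library totals.

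**Figure D3:**
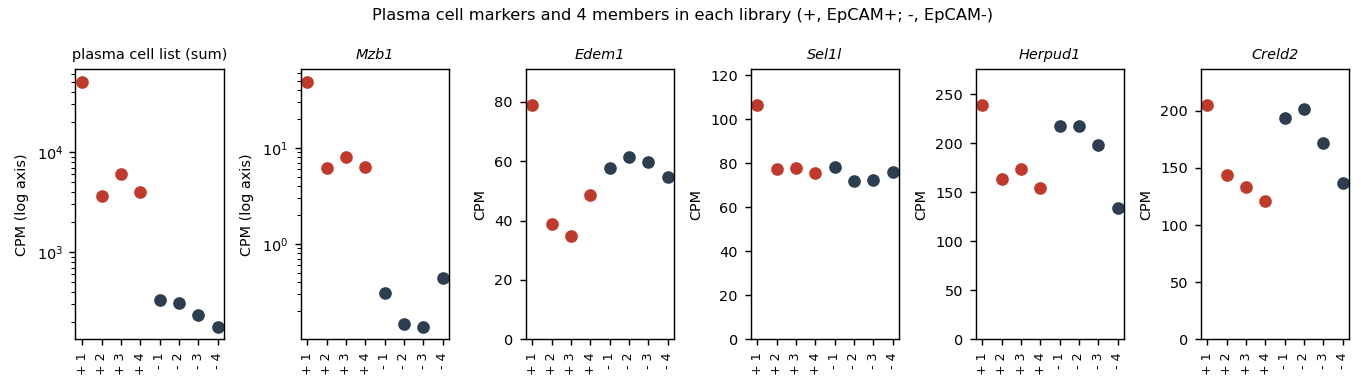
Summed CPM of the plasma cell list and CPM of *Mzb1* (log axes), and CPM of 4 members (axes from 0), in EpCAM+ libraries 1 to 4 (red) and EpCAM- libraries 1 to 4 (dark). EpCAM+ 1 holds the highest value in all 6 panels, and the other EpCAM+ libraries have plasma cell levels above every EpCAM- library.

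EpCAM+ 1 was high within its fraction for chaperone and ERAD members. Relative to the mean of its own fraction, its median deviation was 0.28 on the log2 scale over the 9 chaperone system members and 0.35 over the 5 ERAD members. The median was smaller over the 4 stress sensors or factors (0.14, with *Atf6* at 0.31 and *Ddit3* at 0.20) and the 4 disulfide isomerases (0.09, with *Pdia4* at 0.38). It was 0.00 over the 3 oligosaccharyltransferase subunits, -0.04 over the 4 signal peptidase subunits, -0.05 over the 2 lectin chaperones and -0.06 over the 7 translocon members. This is the library with the highest immunoglobulin share, given above, and whether that share has a part in these values was not tested. Without EpCAM+ 1 the number of lower members was 24, as with it, with *Edem1* and *Creld2* gained and *Ssr4* and *Spcs2* lost. On the other side EpCAM- 4 was low in the chaperone system (median deviation -0.35) and near its fraction in the translocon (-0.01). Without EpCAM- 4, 25 members were lower.

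**Figure D4:**
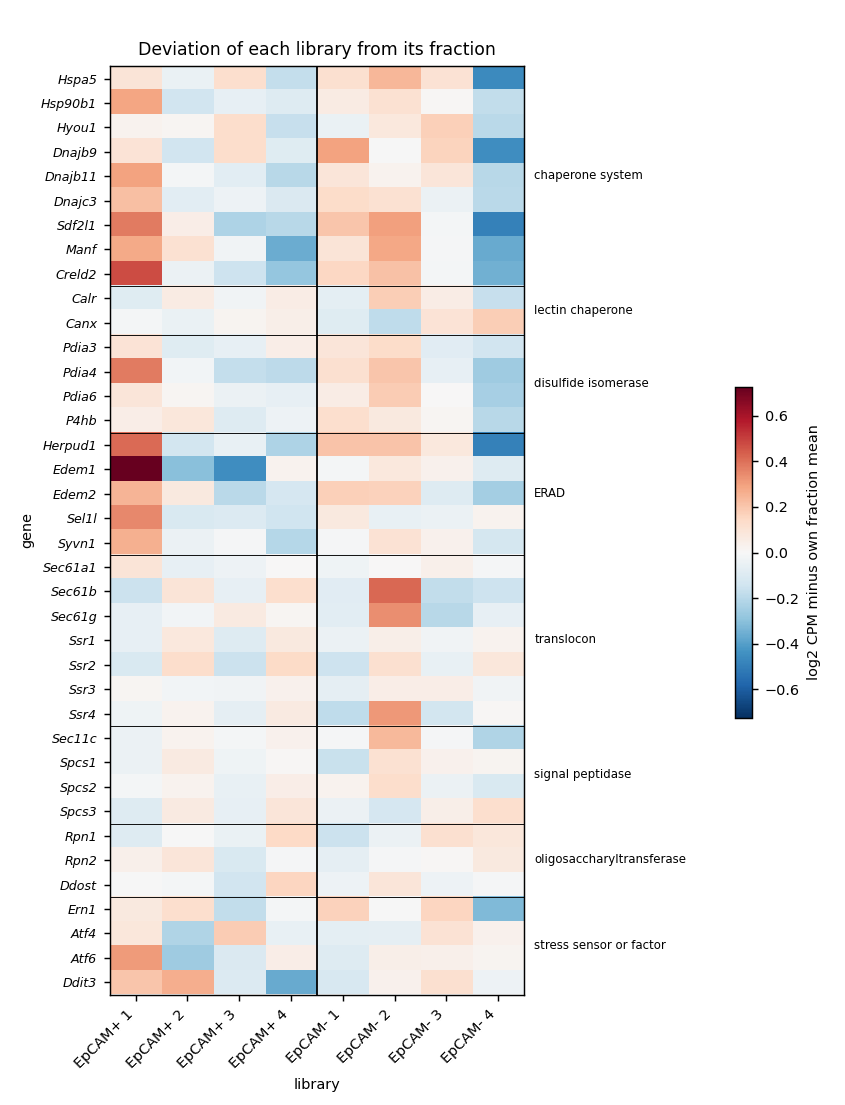
Log2 CPM of each member in each library minus the mean of the same fraction (color), with members grouped by role and the fractions separated by a line. EpCAM+ 1 is high in the chaperone system (median 0.28) and ERAD (median 0.35), and EpCAM- 4 is low in the chaperone system (median -0.35).

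In the translocon, 6 of 7 members were lower (median -0.46), and all 7 had every EpCAM+ library below every EpCAM- library. *Ssr3*, a subunit of the TRAP complex that assists SEC61 (chr3:65379655-65392623), had 147, 143, 143 and 148 CPM against 206, 223, 223 and 212 CPM. Replicates lay closer together than for most members (-0.57, SE 0.0602, edgeR adjusted p = 0.000183). *Ssr1*, another TRAP subunit (chr13:37966605-37994217), had 205, 226, 200 and 225 CPM against 305, 324, 310 and 321 CPM (-0.56, SE 0.0678, edgeR adjusted p = 0.00031). *Sec61a1*, the channel itself (chr6:88503579-88518905), had 162, 146, 148 and 152 CPM against 204, 209, 214 and 208 CPM (-0.46, SE 0.0616, edgeR adjusted p = 0.000499). *Ssr2*, *Sec61g* and *Ssr4* were lower by 1.55-, 1.34- and 1.27-fold, and *Ssr4* no longer passed under the scalings named for *Hspa5* or without EpCAM+ 1 or 3 (adjusted p = 0.0509 and 0.066). *Sec61b*, a small channel subunit, missed the threshold (-0.35, edgeR adjusted p = 0.0529) with a high value in EpCAM- 2 (259 CPM, against 171 to 183 CPM in the other EpCAM- libraries) and passed when the replicate number was a block (adjusted p = 0.016), and also without EpCAM- 3 or EpCAM- 4 (0.0455 and 0.046) and with DESeq2 (0.0235).

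The signal peptidase subunits were split. *Spcs3*, a subunit required for cleavage (chr8:54520433-54529998), had 144, 161, 147 and 163 CPM against 249, 236, 264 and 279 CPM without overlap (-0.74, SE 0.0767, edgeR adjusted p = 0.000182). *Spcs2* (chr7:99837569-99863462) had 573, 590, 557 and 598 CPM against 693, 745, 661 and 632 CPM, a smaller fall (-0.24, SE 0.0752, edgeR adjusted p = 0.0282) whose call held in 10 of 17 alternative settings. Without EpCAM+ 1, 2 or 3 or EpCAM- 2 its adjusted p was 0.0513 to 0.0807. *Spcs1* had 247, 266, 249 and 256 CPM against 252, 304, 288 and 285 CPM (-0.15, edgeR adjusted p = 0.125), and passed without EpCAM- 1 (adjusted p = 0.034). *Sec11c*, a catalytic subunit, had 273, 286, 278 and 287 CPM against 262, 311, 262 and 227 CPM (0.08, edgeR adjusted p = 0.487), the only one of the 4 with a positive fitted change. *Spcs1* overlaps *Glt8d1* at one end.

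All 3 oligosaccharyltransferase subunits, which transfer the N-glycan to the nascent chain, were lower without overlap. *Rpn2* (chr2:157279017-157326319) had 398, 412, 359 and 385 CPM against 562, 583, 590 and 617 CPM (-0.60, SE 0.0714, edgeR adjusted p = 0.00029). *Rpn1* (chr6:88084482-88105304) had 395, 421, 408 and 466 CPM against 594, 644, 719 and 703 CPM (-0.65, SE 0.0871, edgeR adjusted p = 0.00046). *Ddost* (chr4:138304730-138312628) had 526, 520, 478 and 586 CPM against 741, 808, 742 and 756 CPM (-0.53, SE 0.0809, edgeR adjusted p = 0.000845). The median log2 ratio of the 3 subunits lay between -0.50 and -0.72 in the 4 pairs. Single ratios ran from -0.37 (*Ddost*, pair 4) to -0.82 (*Rpn1*, pair 3).

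Among the stress sensors and factors only *Atf4* passed. *Atf4*, the factor translated when eIF2-alpha is phosphorylated (chr15:80255184-80257541), had 155, 126, 167 and 141 CPM against 176, 176, 198 and 188 CPM. The fractions did not overlap but lay close (-0.32, SE 0.0917, edgeR adjusted p = 0.017), and the call was lost under upper-quartile scaling (adjusted p = 0.0516), under library totals (0.0591) and without EpCAM- 3 (0.051). ATF4 is controlled mainly in translation, so its RNA does not report its protein. *Ddit3*, which encodes CHOP, had 35.6, 37.1, 28.9 and 23.9 CPM against 30.9, 34.2, 36.3 and 32.7 CPM (-0.09, SE 0.135, edgeR adjusted p = 0.601). Its 4 pairs were split in direction, and its locus overlaps *Mars*.

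*Atf6*, the sensor that is cleaved in the Golgi, had 24.6, 16.6, 18.4 and 20.5 CPM against 21.2, 23.2, 23.1 and 22.9 CPM (-0.18, SE 0.124, edgeR adjusted p = 0.274). *Ern1*, which encodes IRE1-alpha, the sensor that splices *Xbp1*, had 11.4, 11.8, 9.56 and 10.7 CPM against 12.2, 10.9, 12.1 and 8.68 CPM (-0.02, SE 0.144, edgeR adjusted p = 0.928). Both overlapped between fractions. Splicing of *Xbp1* and phosphorylation of the sensors are not visible in counts per gene.

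Levels of different members were compared by the deposited FPKM, which are fragment counts scaled by gene length and by library size. *Calr* had the highest level in both fractions (959 ± 58.1 FPKM in EpCAM+ and 1537 ± 159 FPKM in EpCAM-, SD, n = 4). *Pdia3* (903 ± 32.0 and 1097 ± 115 FPKM) and *Hspa5* (857 ± 90.4 and 1132 ± 232 FPKM) came next, with *Pdia3* ahead in EpCAM+ and *Hspa5* ahead in EpCAM-. *Pdia3* and *Hspa5* differed by less than the SD of *Hspa5* in each fraction, and in EpCAM+ libraries *Calr* and *Pdia3* differed by about 1 SD of *Calr*. The sensors lay at the other end, *Ern1* at 4.10 ± 0.381 and 3.94 ± 0.673 FPKM and *Atf6* at 4.39 ± 0.659 and 4.70 ± 0.116 FPKM, with *Hyou1* next (5.46 ± 0.573 and 8.99 ± 1.03 FPKM). These FPKM imply gene lengths other than those listed in the same table, which limits comparisons between genes.

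Of the 8 members with an ERSE, all had a negative fitted change, though that of *Syvn1* turned positive under upper-quartile scaling and library totals. The test called 5 of them lower (*Calr*, *Canx*, *Hsp90b1*, *Hspa5* and *Pdia6*), against 24 of all 38 members and 20.8% of all tested genes, and 3 did not pass (*Creld2*, *Dnajc3* and *Syvn1*). Of the 9 other tested genes with an ERSE in their window, 2 were higher (*Derl3* and *Zfp57*) and 7 did not pass. A match describes the letters of a promoter and not binding.

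Beyond the members, 140 other genes of the ER pathway were read from lists of the same kinds, of which 130 were tested. Of these, 46 were lower and 19 higher, the latter count falling to 12 without EpCAM+ 4 or EpCAM- 3 and to 11 without EpCAM- 4, and the median change on the log2 scale was -0.14. Over all tested genes 20.8% were lower and 21.8% higher. The counts of each list below are to be read beside these shares, and some lie near them. In the oligosaccharyltransferase list 6 of 9 were lower and the other 3 did not pass, among the lower ones both catalytic subunits, *Stt3a* (-0.48, edgeR adjusted p = 0.000632) and *Stt3b* (-0.61, edgeR adjusted p = 0.000519). Of 16 genes of targeting and translocation, 6 were lower and 2 higher, including *Srp68* of the signal recognition particle (-0.50) and *Get4* of tail-anchor targeting (-0.62). In glycan trimming and quality control, 4 of 9 were lower and 3 higher, with *Mogs*, the first glucosidase of the N-glycan, at 144 to 165 CPM against 250 to 313 CPM (-0.84, edgeR adjusted p = 0.000182), and *Lman1*, the cargo receptor ERGIC-53, at -0.57. Among 23 genes of COPII export and retrieval, 9 were lower and 1 higher, and those with the smallest adjusted p were *Tmed3* (-0.76) and the KDEL receptor *Kdelr2* (-0.59).

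In disulfide formation, 5 of 15 were lower and 3 higher, against 20.8% and 21.8% of all tested genes. *Ero1l*, the oxidase that recharges PDI, had 27.0 to 28.2 CPM in EpCAM+ libraries and 44.4 to 54.2 CPM in EpCAM- libraries (-0.81, edgeR adjusted p = 0.000181), and *Erp29* fell by 0.64 on the log2 scale. The other ERAD genes included 9 lower of 20, such as *Derl1* (-0.53, edgeR adjusted p = 0.000917) and *Ube2j2* (-0.42, edgeR adjusted p = 0.000708), and 1 higher, *Derl3* (1.66, edgeR adjusted p = 0.0203, or 0.056 without EpCAM- 4). Whether members and other ERAD genes differ was not tested. Of 19 chaperones and prolyl isomerases, 4 were higher, near the 21.8% of all tested genes, and 1 was lower. Highest in fitted change was *Mzb1*, a BiP-associated protein of B cells and plasma cells, at 49.3, 6.18, 8.16 and 6.35 CPM against 0.137 to 0.441 CPM (6.03, edgeR adjusted p = 0.000945). The isomerase *Ppic* was also higher (0.90, edgeR adjusted p = 0.00412).

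**Figure D5:**
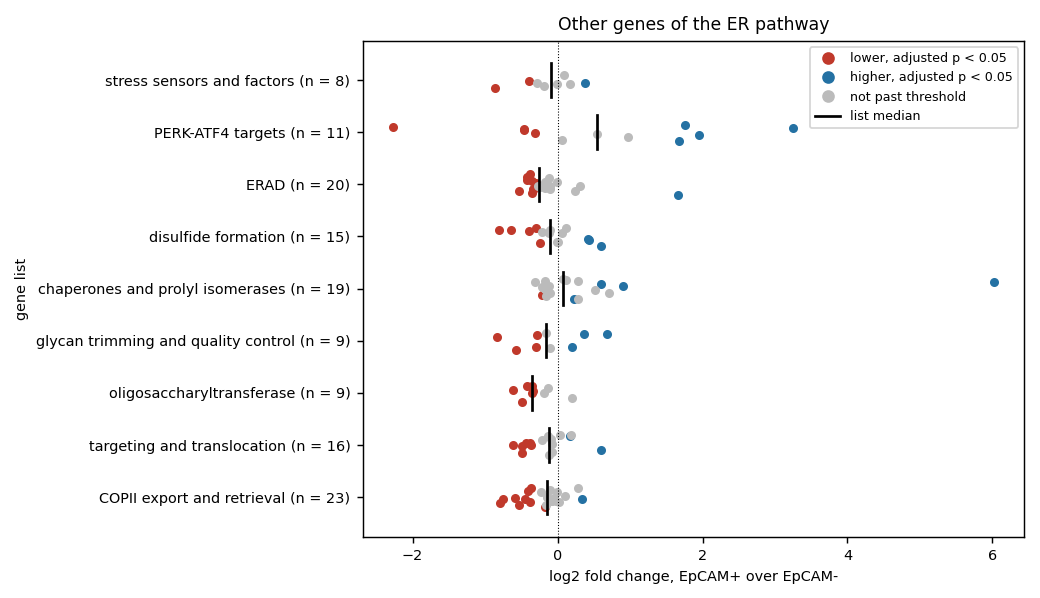
Log2 fold change (EpCAM+ over EpCAM-, x axis) of the 130 other tested ER pathway genes by list (y axis, with n), colored by call, with a line at each list's median. Most called genes of oligosaccharyltransferase, ERAD and COPII lists lie below 0, and the PERK-ATF4 targets spread to both sides.

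PERK-ATF4 targets went in both directions, with 4 of 11 higher and 4 lower. *Asns* (asparagine synthetase) had 34.3, 36.0, 50.6 and 42.7 CPM in EpCAM+ libraries against 109, 122, 229 and 330 CPM in EpCAM- libraries (-2.27, SE 0.327, edgeR adjusted p = 0.000659). *Nupr1*, a stress-induced chromatin protein, had 26.4, 32.9, 19.8 and 16.2 CPM against 10.4, 5.25, 4.37 and 4.56 CPM (1.95, SE 0.306, edgeR adjusted p = 0.000971). The other 6, named after their values were seen, were *Atf3* (3.25), *Vldlr* (1.76) and *Trib3* (1.67), which were higher, and the serine synthesis genes *Psat1* (-0.46) and *Phgdh* (-0.32) with *Cebpb* (-0.46), which were lower. *Atf3* was low throughout, at 0.624 to 10.4 CPM against 0.187 to 0.809 CPM, and *Vldlr* did not pass without EpCAM+ 1, EpCAM+ 2 or EpCAM- 3 (adjusted p = 0.0585 to 0.0788).

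Of the 8 other sensors and factors tested, 2 were lower (*Atf6b*, -0.39, and *Creb3l1*, -0.87, edgeR adjusted p = 0.00477 and 0.0223, the latter 0.0556 to 0.0636 without EpCAM+ 1, EpCAM+ 3 or EpCAM- 1) and 1, *Creb3*, was higher (0.38). *Eif2ak3*, which encodes PERK, had 11.7, 7.82, 9.33 and 8.75 CPM against 11.7, 9.25, 12.3 and 12.6 CPM (-0.29, SE 0.161, edgeR adjusted p = 0.173). *Xbp1* had 347, 214, 220 and 172 CPM against 245, 249, 239 and 167 CPM (0.08, SE 0.203, edgeR adjusted p = 0.767). As for *Edem1*, its EpCAM+ 1 value was the highest of all 8, and without that library its fitted change was -0.16.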

How the data were processed

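RNA-Seq was performed on 4 *Zeb1-/-* EpCAM+ and 4 *Zeb1-/-* EpCAM- samples of LSK cells. Per the labels and the study's methods, RNA was amplified with SMART-Seq v4, libraries were built with a kit that does not mark strand, and cleaned reads were aligned to GRCm38.p6 with STAR 2.6.1d. The authors deposited raw counts per gene from featureCounts 1.5.0-p3 and FPKM, alongside fold changes and p-values of their own DESeq2 1.20.0 comparisons, which were not used here. How reads that fit several genes were treated is not given in the sources used here. Deposited FPKM were used only to compare levels between genes.

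The filter was edgeR's filterByExpr and the scaling TMM. Fractions were compared by the quasi-likelihood test of edgeR, two-sided, and p-values were adjusted over 13560 genes by Benjamini and Hochberg's method, with a threshold of 0.05 (R 4.3.3, edgeR 4.0.16, limma 3.58.1, DESeq2 1.42.0, Python 3.11.15, matplotlib 3.10.9). CPM used the library size of the kept genes after TMM. Reads carry no molecular identifiers, so counts may understate the sampling error within a library, which was not measured. The test takes its spread from the replicate libraries. A single summed level was compared by an exact permutation test over libraries.

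The members, the gene lists and the tests were chosen with earlier results of these data known. The lists give counts and medians with no test of their own, except the summed plasma cell list. Its exact permutation p is for a list chosen with that knowledge. The members are a named set. Values in every library are given for up to 3 members of a role with the smallest adjusted p, for all stress sensors, and for members against their role's direction. Of the other pathway genes, *Xbp1*, *Eif2ak3* and up to 2 in a list with the smallest adjusted p were named. *Hspa5*, *Sdf2l1*, *Manf* and further genes with values were named after their values were seen.

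Same-numbered libraries deviated together from their fraction means (correlation across genes, which are not independent, 0.205 to 0.356 in 4 pairs, against -0.216 to 0.0396 in the 12 others), and each library correlated best with its own number, so the numbers were taken to pair the samples although the labels do not say what they share. The main test leaves the pairing out. Whether the study's own test had a pairing term is not given in the sources used here. The other settings were DESeq2, limma-trend (prior count 2), DESeq2's size factors, upper-quartile scaling, library totals, immunoglobulin genes and *Jchain* removed, a filter of 1 count or of 10 counts in every library, the replicate block and each library left out. The procedure was tested on simulated data. Promoter windows came from RefSeq on GRCm38.p6, the build of the alignment, and motifs were searched on both strands.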

Additional observations from a re-analysis of the deposited data

Results flagged for a closer look

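Of the 76 groups of 4 libraries examined (38 members in each fraction), 3 had a single library far from the others, where chance gives about 1 in 20. Values are the gap from that library to its nearest neighbor divided by the range of the fraction. *Sel1l* in EpCAM+ libraries had a gap of 0.913 of its range, with EpCAM+ 1 highest. *Sec61b* in EpCAM- libraries had a gap of 0.836, with EpCAM- 2 highest. *Atf6* in EpCAM- libraries had a gap of 0.833, with EpCAM- 1 lowest.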

How the results depend on the processing

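Across 17 other settings the number of lower members was 19 to 26 and of higher members 0 in each, and the median log2 fold change of the members stayed between -0.51 and -0.35. Of the 24 lower members, 19 passed in all 17 settings, while *Hspa5* passed in 12, *Pdia4* in 11, *Spcs2* in 10, *Ssr4* in 13 and *Atf4* in 14. With the replicate block, 26 members were lower, with *Dnajc3* and *Sec61b* gained and no call lost, and of the other ER pathway genes 55 were lower (46 without the block) and 23 higher (19 without it). The number of other ER pathway genes that were higher (19) was 11 to 22 with 1 library left out, with 12 without EpCAM+ 4, 12 without EpCAM- 3 and 11 without EpCAM- 4, and 13 with no filter beyond 1 count. The log2 ratio of summed plasma cell markers (5.93, exact permutation p = 0.0286) was 4.12 to 6.26 with 1 library left out. Without any 1 EpCAM- library the exact permutation p was 0.2, where EpCAM+ 1 dominates the means of groups of unequal size. The sums of the fractions still did not overlap. Small changes that had not passed turned in sign. Under upper-quartile scaling and library totals they were 0.0132 and 0.00999 for *Herpud1*, 0.0417 and 0.0408 for *Syvn1* and 0.0666 and 0.0622 for *Ern1*, and 0.00595 for *Ern1* with at least 10 counts in every library. With 1 library left out they ranged from -0.232 to 0.00018 for *Herpud1*, -0.0731 to 0.0817 for *Edem2*, -0.142 to 0.0192 for *Syvn1*, -0.122 to 0.0373 for *Ern1*, -0.185 to 0.0123 for *Ddit3* and -0.162 to 0.205 for *Xbp1*. The cause of these shifts was not tested.

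Standard errors of the members' log2 fold changes ran from 0.0602 (*Ssr3*) to 0.217 (*Edem1*) at this depth and number of libraries, and the smallest change called was 1.18-fold (*Spcs2*). No smaller change of a member passed the test.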
